A study of Rattus norvegicus with 24 samples.

Results

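Muscle that had been trained for 20 days was compared with the untrained muscle on the other side of the same rats. The comparison uses 6 of the 24 libraries of the series: the left tibialis anterior of 3 rats, which received the training, and the right tibialis anterior of the same 3 rats, paired by animal number. All groups were male Wistar rats with a mean age of 23 weeks. A nerve stimulator implanted in the abdomen made the left shin muscle contract against its antagonists in 1 session a day, with 5 sets of 10 contractions, for 2, 10, 20 or 30 days. Each time point has 3 rats. Tissue was taken 1 h after the last session, so the trained muscle carries both the adaptation to 20 days and the response to the latest session, and these cannot be told apart. The right muscle received no stimulation, but it shares the animal, its abdominal surgery and anything in its blood. The leg incision and the electrodes were on the left side only, so their effect and that of training cannot be told apart. The question is which transcripts 20 days of daily loading raised or lowered in a muscle, measured against its own partner.

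Poly-A RNA was sequenced, and the values are TPM-type values, scaled to transcript length and library total, given for 20027 transcripts of 15273 gene symbols. Every library adds up to the same total, so depth cannot be read from the table. Values below were divided by 1 factor per library, which lay between 0.895 and 1.11 for these 6 libraries. A change is the log2 of trained over contralateral after 1 was added to each value, which makes the change of low transcripts look smaller. It comes with its standard error (SE) and with a p adjusted over all 13452 transcripts that were tested, and "rose", "fell" and "passed" are used for an adjusted p under 0.05. Mitochondrial mRNAs made up 33.0%, 31.1% and 35.5% of the trained libraries and 29.6%, 30.4% and 32.7% of their partners. Away from these 6, the contralateral library of replicate 1 at 30 days stood apart from the other contralateral libraries with 43.7%. It enters the shared estimate of spread, and without that animal the number of transcripts that passed was 1540 in place of 1559.

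At 20 days 1559 of 13452 transcripts (11.6%) passed. Of these, 924 (6.87%) were higher in the trained muscle and 635 (4.72%) were lower, and 1555 moved the same way in all 3 pairs. The trained and contralateral values did not overlap for 1479 of the 1559, or 94.9%, beside 3898 (29%) of all tested transcripts. The median log2 change was 0.85 among those that rose, -0.65 among those that fell and -0.02 over all. More than 2-fold changes were seen upwards in 316 transcripts and downwards in 101, and more than 4-fold changes in 55 and 11. The median contralateral value was 3.43 for those that rose and 12.5 for those that fell, and the median trained value was 7.40 and 7.38. The split between rises and falls moved with the settings. In the values as deposited 601 were called higher and 480 lower, and with the 6 libraries alone 725 and 335. In a fit of the 3916 transcripts with a mean of at least 10, adjusted over these, 397 were called higher and 494 lower. The count leans on all 3 animals. Without both muscles of replicate 1, 2 or 3 it was 678, 717 or 954. Below, gene lists are counted with 1 transcript per gene, that of the highest mean, and are read beside the same count over 11100 genes, of which 861 (7.76%) rose and 559 (5.04%) fell, with a median change of -0.012.

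**Figure D1:**
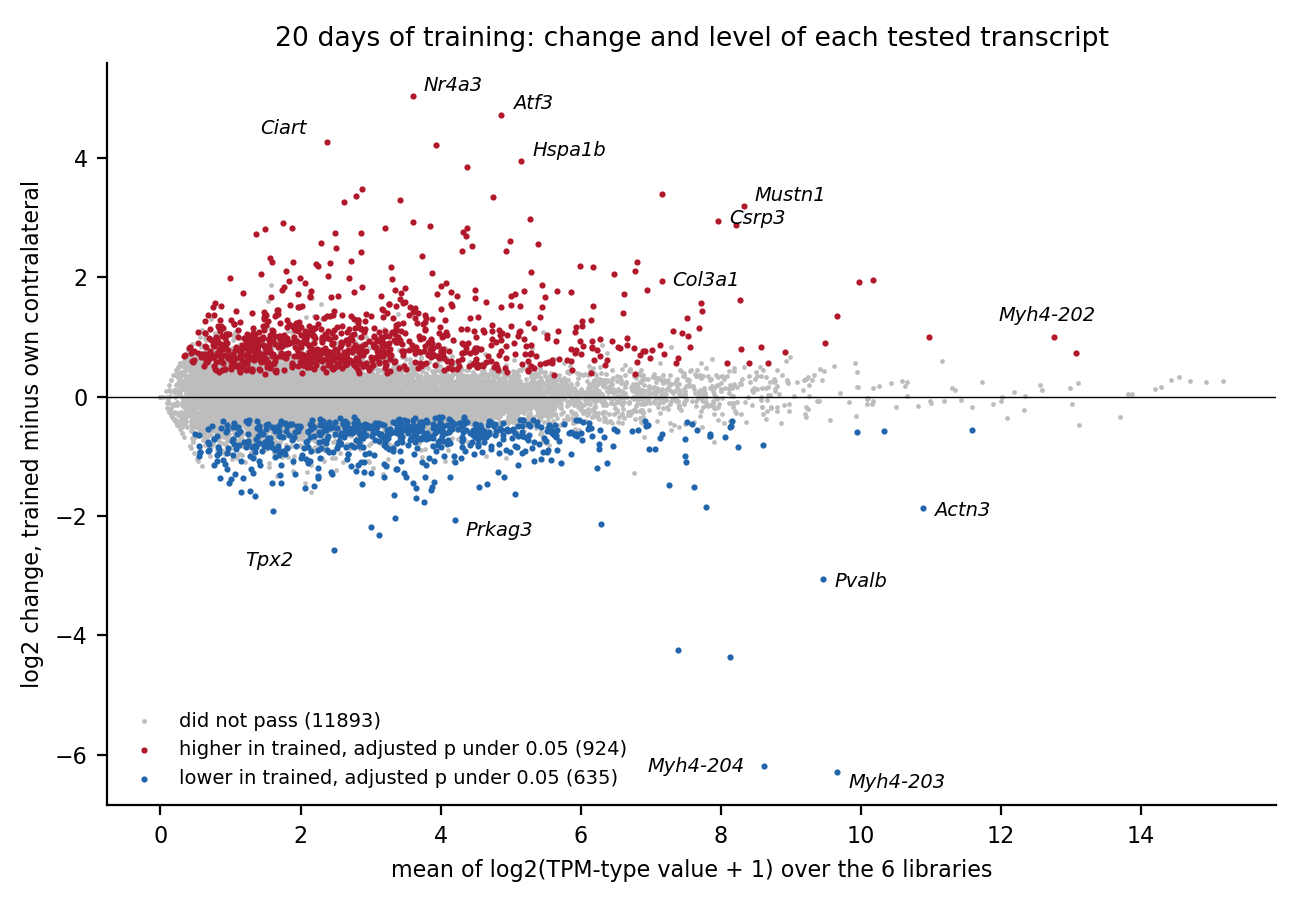
Log2 change of each of the 13452 tested transcripts (vertical axis) against its mean log2 level over the 6 libraries (horizontal axis), with the 924 that rose in red and the 635 that fell in blue. The deepest falls (log2 changes of -6.28 and -6.20) belong to abundant myosin heavy chain transcripts, and the steepest rises to transcripts that are low in the contralateral muscle, such as Nr4a3.

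A skeletal muscle fibre is typed by the myosin heavy chain it makes. In rat limb muscle these run from slow and oxidative, through type 2A and 2X, to 2B, the fastest and most glycolytic, and endurance or repeated loading is known to shift fibres away from 2B. Loaded contraction also switches on immediate early genes within an hour, a set of regulators induced without new protein synthesis, and it stresses the Z-disc, the plate that joins neighbouring sarcomeres. Growth and repair of loaded muscle further involve resident macrophages, fibroblasts that make matrix, and satellite cells, its stem cells. In whole muscle, fewer cells of a type and less RNA per cell cannot be told apart.

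The myosin genes carried the deepest change. The table gives 1 symbol, Myh4, to transcripts that lie in 3 separate stretches of chromosome 10 of the rn6 build. All 3 start after Myh3 and before Myh8. The first is chr10:53713938-53738032 (Myh4-201), the second chr10:53740841-53764611 (Myh4-202), and the third starts at 53778662 (Myh4-203 and Myh4-204). Myh4-203 ends at 53801604, but Myh4-204 runs to 53848348, past the start of Myh8-201 at 53818818. The remaining 2, Myh4-205 and Myh4-206, span more than 1 stretch and are left out of the shares below for that reason. Myh4-205 stood at 183, 137 and 135 in the trained muscles against 119, 96.2 and 134 and did not pass (adjusted p = 0.498). Myh4-206 stood at 3.19, 2.72 and 2.76 against 21.97, 14.97 and 18.6 and fell (log2 change -2.31, SE 0.56), but not without any 1 animal or without the pairing. In the RefSeq annotation of the GRCr8 assembly the protein-coding genes between Myh3 and Myh8 are, in the same order along the chromosome, Myh2, Myh1 and Myh4, which encode the 2A, 2X and 2B myosins. The files themselves do not use the first pair of these names, so the transcripts are called by their stretch. Their sequences are alike, and how reads were divided among them is uncertain.

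Myh4-203, in the third stretch, stood at 159.8, 66.0 and 70.7 in the trained muscles of replicates 1, 2 and 3 and at 7856, 6660.2 and 6966 in their partners. Myh4-204 stood at 75.3, 32.6 and 36.3 against 3982, 3002 and 3149.7. Every contralateral muscle held many times the trained value, and the groups were far from overlapping. The log2 changes were -6.28 (SE 0.53, adjusted p = 4.25e-05) and -6.20 (SE 0.51, adjusted p = 4.25e-05), lower in 3 of 3 pairs. In the second stretch, Myh4-202 stood at 10891, 9895 and 8586 in the trained muscles and at 4162, 5099 and 5519 in the contralateral ones. It was higher in each trained muscle, with a log2 change of 0.99 (SE 0.18, adjusted p = 0.00477), although it did not pass without replicate 1. Myh4-201, in the first stretch, stood at 873, 773 and 975 against 1269, 956 and 1065 and did not pass (adjusted p = 0.482). The slow myosin Myh7 was lower in each trained muscle, at 183, 171 and 183 against 301, 298 and 258, and also missed the threshold (log2 change -0.67, SE 0.22, adjusted p = 0.0749).

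Taken as shares of these transcripts and Myh7 together, the second stretch held 89.4%, 90.5% and 87.2% in the trained muscles and 23.7%, 31.8% and 32.5% in the contralateral ones. The third stretch held 1.93%, 0.902% and 1.09% against 67.4%, 60.3% and 59.7%. The main myosin message of each animal therefore sat in the third stretch on the untrained side and in the second on the trained side. The first stretch kept between 5.97% and 9.90% in all 6 muscles, and Myh7 between 1.50% and 1.86%.

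**Figure D2:**
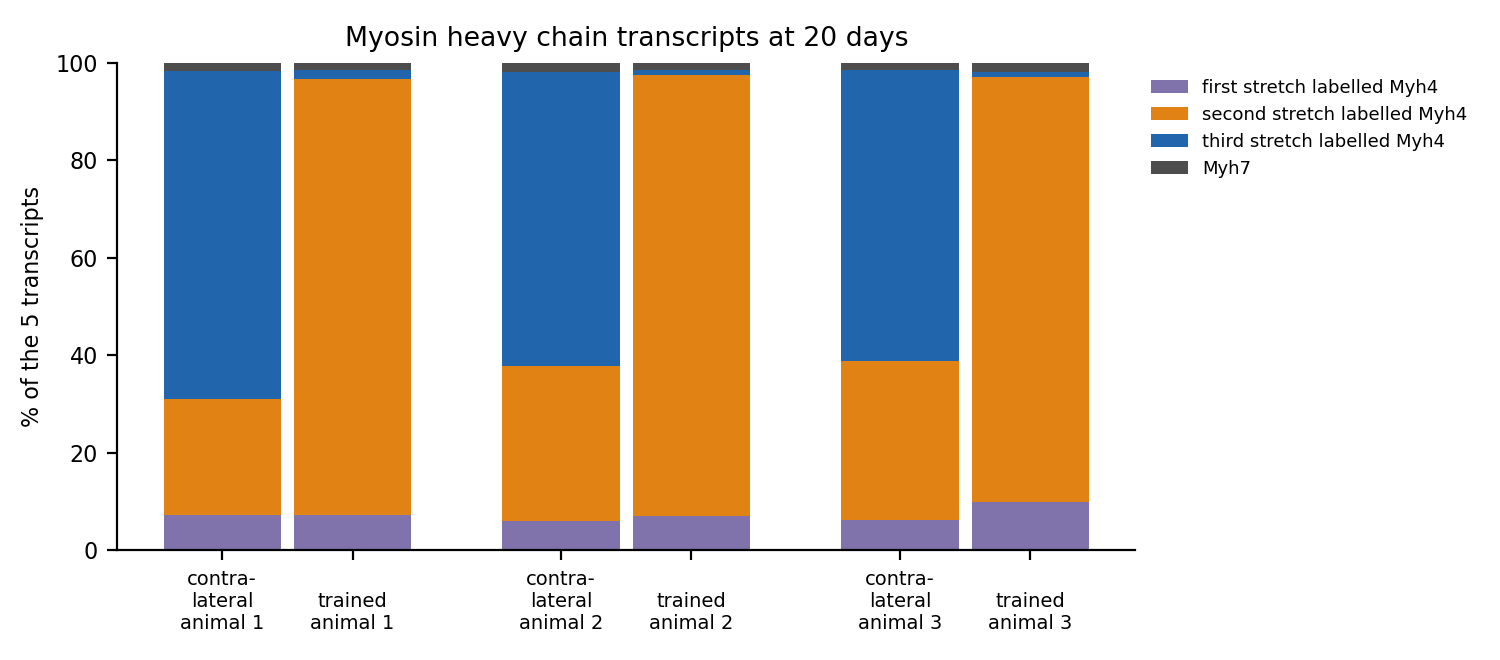
Share of each stretch labelled Myh4 and of Myh7 in the sum of these 5 myosin heavy chain transcripts, in percent, for the contralateral and the trained muscle of each of the 3 animals. The third stretch falls from at least 59.7% on the contralateral side to at most 1.93% on the trained side.

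The list of fast and glycolytic fibre genes had 26 tested members, of which 8 fell and 1 rose, with a median log2 change of -0.16. The 1 that rose is Myh4-202, which the counting rule took for Myh4 although it lies in the second stretch. Without replicates 1, 2 and 3 in turn, 7, 4 and 4 fell. Pvalb encodes parvalbumin, the calcium buffer of the fastest fibres, and stood at 453, 205 and 157 against 1914, 1981 and 2233. The 3 trained muscles lay far below the 3 contralateral ones (log2 change -3.06, SE 0.34, adjusted p = 0.000221). Actn3, the alpha-actinin found in fast fibres, stood at 1177, 1135 and 732 against 3558, 3765 and 3525, a change of -1.86 (SE 0.21), again without overlap. Also lower in 3 of 3 pairs were Mylk2, the kinase that phosphorylates the myosin regulatory light chain (-1.85, SE 0.14), and Ampd1, the muscle AMP deaminase (-1.51, SE 0.13).

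Further genes among the 12 that fell most are in no fibre list. Prkag3, a regulatory subunit of AMP-activated protein kinase typical of glycolytic fibres, stood at 7.95, 9.23 and 6.94 against 34.6, 47.2 and 29.9 (log2 change -2.06, SE 0.13, adjusted p = 2.22e-05). Atp1b2, a beta subunit of the sodium pump, stood at 52.8, 46.3 and 19.7 against 172, 181 and 139 (-2.13, SE 0.19). Each trained muscle of both genes lay below each contralateral one. Aqp4, a water channel of fast fibre membranes, fell as well (-1.70, SE 0.33), but not without replicate 1 or 2. Lmod1 (-2.18, SE 0.19), a leiomodin that nucleates actin filaments in smooth muscle, and Cib2 (-1.65, SE 0.14), a calcium-binding protein, fell too.

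The listed transcripts of fast troponin T did not change alike. Tnnt3 was picked after its values were seen, because 2 of its 6 tested transcripts fell and 4 did not pass. Tnnt3-206 stood at 102, 34.1 and 63.9 in the trained muscles against 1366, 1101 and 1363, a log2 change of -4.37 (SE 0.38, adjusted p = 4.64e-05), and Tnnt3-201 changed by -4.25 (SE 0.39). Over the same stretch, Tnnt3-202 stood at 5377, 3531 and 3381 against 4214, 3704 and 4761, with a change of -0.07 (SE 0.19). The trained muscles thus held very little of the pair while the other forms overlapped between the sides. How reads were divided among these overlapping transcripts is uncertain, and a change of splice form was not tested.

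The slow and oxidative fibre list moved little. Of 19 tested members, 3 rose and none fell, and the median log2 change was -0.11. Those that rose were Csrp3, a Z-disc protein that also counts as a load gene, Actn2 (0.90, SE 0.19) and Mb, myoglobin (0.73, SE 0.15). Mb stood at 11626, 11627 and 9985 against 7022, 6681 and 6318. The last pair of genes did not pass without replicate 1 or without replicate 2, when 1 of the 19 rose; without replicate 3, 3 rose.

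Among regulators of fibre type, 8 of 31 tested genes fell and 2 rose, with a median of -0.24. Without replicates 1, 2 and 3, 3, 6 and 7 fell and 1 rose each time. Maf (-0.91, SE 0.16), a large Maf factor that acts on the 2B myosin gene, passed in each of these fits, and its relative Mafa (-1.52, SE 0.33) did not without replicate 1 or 3. Sox6 (-1.08, SE 0.23), known as a repressor of slow genes, did not pass without replicate 1 or 2. Rcan1, a target and inhibitor of the phosphatase calcineurin, stood at 116, 169 and 123 against 25.4, 24.8 and 37.2 and rose by 2.19 (SE 0.22) on the log2 scale. Ppargc1a, the coactivator of mitochondrial genes, stood at 7.92, 8.93 and 5.36 against 4.22, 4.18 and 2.19 (0.90, SE 0.22) and did not pass without any 1 of the 3 animals, without the pairing or in the values as deposited.

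Genes for calcium release and storage fell in 9 of 30 tested members, beside 5.04% of all genes, and 1 rose. The difference in share was not tested, and the median was -0.27. Without replicates 1, 2 and 3 the number that fell was 4, 5 and 4. Jph1, a junctophilin that ties the calcium store to the surface membrane, stood at 41.7, 39.8 and 40.3 against 75.2, 78.6 and 86.3 (-0.96, SE 0.10, adjusted p = 0.000192). Camk2a, a calmodulin-dependent kinase, fell by 1.08 on the log2 scale (SE 0.15). The 1 gene that rose is Rcan1.

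The largest single rise, that of Nr4a3, was among the immediate early genes. Of 51 tested members, 27 rose against 7.76% of all genes, 1 fell, and the median log2 change was 0.89; without replicates 1, 2 and 3, 25, 24 and 26 rose and none fell. The 1 that fell, Cebpd (-1.16), was named after its value was seen. Nr4a3, an orphan nuclear receptor, stood at 64.4, 78.6 and 62.9 in the trained muscles and at 1.07, 0.49 and 2.10 in their partners. The groups did not overlap, and the lowest trained muscle held many times the highest contralateral one (log2 change 5.03, SE 0.26, adjusted p = 5.82e-06). Atf3, a stress-induced repressor of the ATF family, stood at 157, 179.7 and 118 against 3.63, 5.53 and 5.08 (4.72, SE 0.50). Egr1, a zinc finger factor, stood at 79.1, 84.7 and 69.7 against 4.53, 3.84 and 5.10 (3.85, SE 0.30). Fos, a subunit of the AP-1 dimer, stood at 79.6, 88.3 and 86.1 against 15.7, 4.92 and 5.10, and replicate 1 had the highest contralateral value. Its log2 change was 3.34 (SE 0.48). Jund, a Jun partner of Fos, rose by 1.58 (SE 0.25) on the log2 scale. Snai3, a Snail family factor outside the list, stood at 25.1, 26.8 and 19.4 against 1.15, 1.76 and 0.813 (3.48, SE 0.32).

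**Figure D3:**
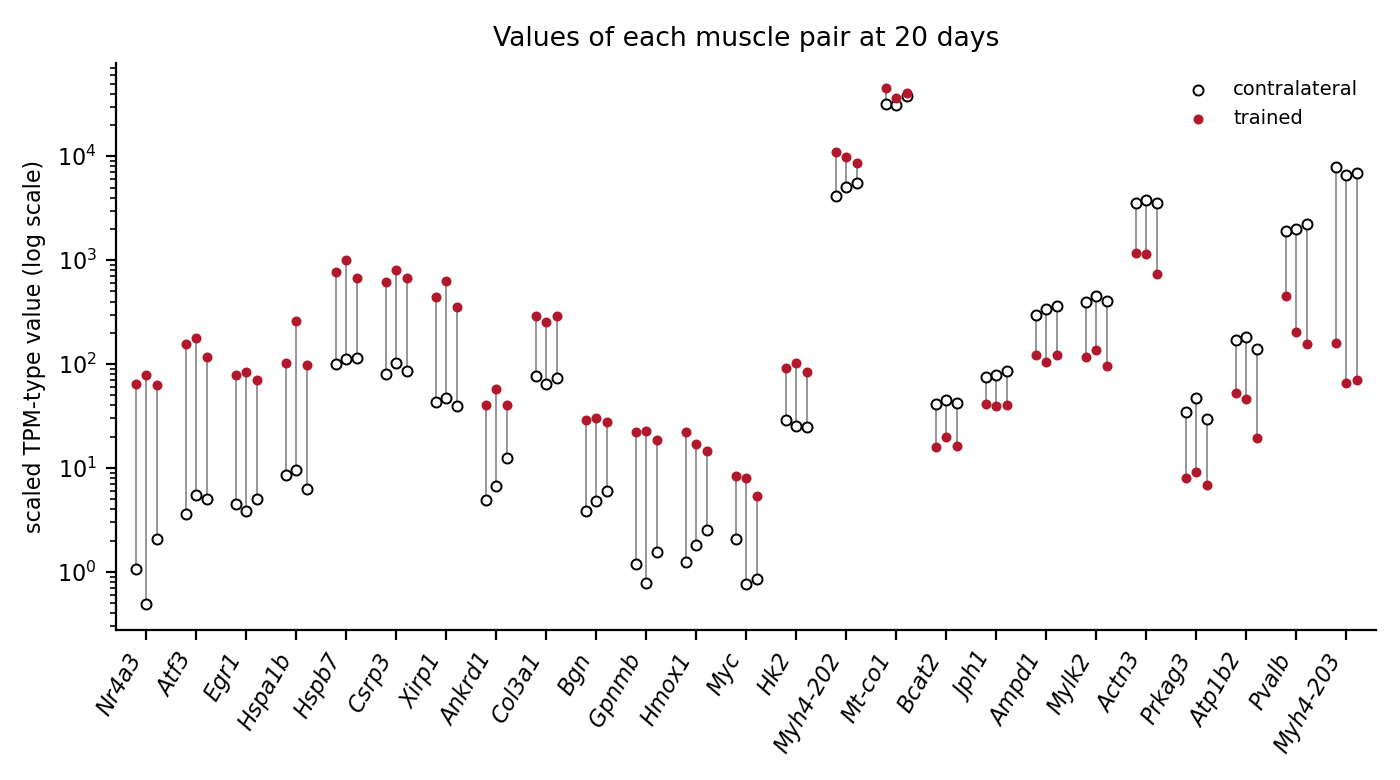
Scaled TPM-type values (log scale) of 25 named transcripts in the trained (red) and contralateral (open) muscle of each animal, with a line joining the muscles of 1 animal. Every line of Nr4a3 points up, from at most 2.10 to at least 62.9, and every line of Myh4-203 points down, from at least 6660.2 to at most 159.8.

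Genes known to answer load and stretch were raised in 21 of 38 tested members, with 1 that fell and a median of 0.82; without replicates 1, 2 and 3, 15, 15 and 19 rose and none fell. The 1 that fell, Pdlim5 (-0.47), was named after its value was seen. Xirp1, an actin-binding protein laid down where fibres are damaged or remodelled, stood at 443, 636 and 355 against 43.1, 47.2 and 39.3 (log2 change 3.40, SE 0.24, adjusted p = 2.22e-05). Csrp3, muscle LIM protein, stood at 619.5, 797 and 669 against 79.9, 103 and 85.4 (2.95, SE 0.41). Both genes were several times higher in each trained muscle than in any contralateral one. Otud1, a deubiquitinase, stood at 47.4, 124.0 and 47.0 against 3.34, 1.82 and 2.64, with replicate 2 the highest (4.22, SE 0.47). Ankrd1, an ankyrin repeat protein of the titin spring, stood at 40.5, 57.3 and 40.0 against 4.97, 6.66 and 12.5 (2.44, SE 0.41). Tnfrsf12a, the receptor for the cytokine TWEAK, rose by 2.83 (SE 0.22) on the same scale. Mustn1, a small nuclear protein of muscle and bone, is outside the list and was the most abundant of the 12 genes that rose most, at 994, 1099 and 828 against 74.2, 121 and 130.3 (3.19, SE 0.24).

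Heat shock proteins and chaperones rose in 13 of 33 tested members, with a median of 0.21; 1 fell, and without replicates 1, 2 and 3, 10, 10 and 11 rose. Hspa1b, an inducible Hsp70, stood at 103, 258 and 98.9 against 8.62, 9.52 and 6.32 (3.94, SE 0.33, adjusted p = 4.25e-05). Its near-identical copy Hspa1a is not in the table, so reads of both may be counted here. The small heat shock proteins, which bind unfolding proteins of the sarcomere, were far more abundant. Hspb6 stood at 2229, 2271 and 1497 against 546, 511 and 489.7 (1.93, SE 0.19), and Hspb7 at 776, 1005 and 669.6 against 100.2, 113 and 116 (2.87, SE 0.28). In both the lowest trained muscle was well above the highest contralateral one. Dnajb1, a helper of Hsp70, rose by 1.97 (SE 0.35).

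Of 26 tested genes of endoplasmic reticulum stress and amino acid shortage 2 rose and 3 fell, with a median of -0.07; without replicates 1, 2 and 3, 2, 1 and 2 rose and 1, 0 and 1 fell. Ddit3, a factor induced in that stress, stood at 41.0, 21.4 and 36.0 against 11.04, 7.02 and 8.38 and rose by 1.75 (SE 0.26). Atf4, which lies above it in the pathway, stood lower in each trained muscle, at 178, 155 and 158 against 244, 210 and 223 (-0.46, SE 0.11), and lost its pass without any 1 animal. Chac1, a glutathione-degrading enzyme and a usual Atf4 target, stood at 2.22, 4.58 and 6.03 against 21.9, 19.7 and 17.5 (-2.04, SE 0.44), and did not pass without replicate 1 or 2. It is also the 1 heat shock list member that fell.

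Promoters of the genes that moved together are shown for a set of motifs. The RefSeq table for GRCr8 holds promoters for 8103 of the 11100 tested genes, and the 250 bases before each gene's start were searched on both strands for 9 motifs. The heat shock element was written GAANNTTC, the cyclic AMP element TGACGTCA and the E-box CACGTG; the Egr element was GCGGGGGCG and the antioxidant element TGACNNNGC. The M-CAT motif was CATTCC. The AP-1 element was TGANTCA, and the CArG box and the MEF2 element were searched as well. GAANNTTC was present in 7.02% of 27457 promoters, in 6.42% of those of genes that rose and in 4.31% of those of genes that fell. Of the 13 chaperone genes that rose, 9 had a promoter in the table, and 5 of the 9 held it: Hspb1, Hspb6, Bag3, Dnaja1 and Dnajb1. TGACGTCA was present in 1.70% of all promoters, 2.97% of those that rose and 2.87% of those that fell, and in 5 of the 21 promoters found for immediate early genes that rose: Jund, Ier2, Maff, Btg2 and Rcan1. CACGTG, the letters bound by clock and Myc family dimers, was present in 5.79%, 7.04% and 8.37%. The motifs to show were chosen after these counts were seen. A match is a description, not a site.

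Shown first are 4 of the 5 chaperone promoters, as the set with the highest share of matches, with GAANNTTC in capitals on either strand. They lie on GRCr8, Hspb1 at chr12:26432302-26432551 (minus strand), Hspb6 at chr1:94934122-94934371 (plus), Bag3 at chr1:192533210-192533459 (plus) and Dnajb1 at chr19:41431142-41431391 (minus). Matches start 129 and 109 bases before the gene start in Hspb1, 149 in Hspb6, 132 in Bag3 and 11 in Dnajb1.
Hspb1: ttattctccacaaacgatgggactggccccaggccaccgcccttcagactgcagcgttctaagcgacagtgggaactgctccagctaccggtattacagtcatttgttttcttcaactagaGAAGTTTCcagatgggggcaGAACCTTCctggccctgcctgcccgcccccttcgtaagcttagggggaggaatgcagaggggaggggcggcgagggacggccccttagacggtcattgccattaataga
Hspb6: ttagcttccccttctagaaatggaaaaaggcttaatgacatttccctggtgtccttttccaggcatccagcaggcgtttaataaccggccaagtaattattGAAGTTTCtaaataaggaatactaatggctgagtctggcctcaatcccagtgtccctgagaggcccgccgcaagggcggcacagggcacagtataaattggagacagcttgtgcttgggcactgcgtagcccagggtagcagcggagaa
Bag3: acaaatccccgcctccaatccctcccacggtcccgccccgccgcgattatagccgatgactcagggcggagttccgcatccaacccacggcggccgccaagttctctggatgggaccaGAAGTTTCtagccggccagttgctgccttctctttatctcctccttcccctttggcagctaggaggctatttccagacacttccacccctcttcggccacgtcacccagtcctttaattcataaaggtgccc
Dnajb1: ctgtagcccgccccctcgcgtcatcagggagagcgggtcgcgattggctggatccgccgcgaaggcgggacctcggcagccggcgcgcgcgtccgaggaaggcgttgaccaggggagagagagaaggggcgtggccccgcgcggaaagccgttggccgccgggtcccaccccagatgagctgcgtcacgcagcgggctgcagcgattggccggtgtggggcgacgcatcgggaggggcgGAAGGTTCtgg

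For the immediate early genes, Jund at chr16:18769772-18770021 (minus) and Rcan1 at chr11:45118237-45118486 (minus) are shown with TGACGTCA in capitals, 221 and 207 bases before the start.
Jund: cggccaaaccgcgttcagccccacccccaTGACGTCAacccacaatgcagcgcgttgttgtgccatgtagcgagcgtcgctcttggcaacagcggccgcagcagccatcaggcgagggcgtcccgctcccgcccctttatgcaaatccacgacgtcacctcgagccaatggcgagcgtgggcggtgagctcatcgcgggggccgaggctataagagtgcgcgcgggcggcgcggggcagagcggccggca
Rcan1: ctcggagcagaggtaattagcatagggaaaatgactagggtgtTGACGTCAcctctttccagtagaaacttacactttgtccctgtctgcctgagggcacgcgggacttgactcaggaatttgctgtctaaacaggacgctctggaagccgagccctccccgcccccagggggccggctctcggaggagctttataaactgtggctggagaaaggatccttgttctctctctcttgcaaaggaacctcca

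Ciart, a repressor of the core clock pair Clock and Bmal1 and the clock gene with the largest change, is shown with CACGTG in capitals at 93, 35 and 21 bases before the start, at chr2:186112247-186112496 (minus).
Ciart: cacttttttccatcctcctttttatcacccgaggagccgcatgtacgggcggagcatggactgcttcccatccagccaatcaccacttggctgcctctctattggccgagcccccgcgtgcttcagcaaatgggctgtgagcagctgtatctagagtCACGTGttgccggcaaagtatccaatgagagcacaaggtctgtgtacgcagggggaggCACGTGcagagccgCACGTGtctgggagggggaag

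Ciart stood at 24.4, 24.3 and 17.3 in the trained muscles, and in the contralateral ones it was listed at 0 in replicate 1 and stood at 0.160 and 0.439 in replicates 2 and 3. It was near absent on one side and present on the other (log2 change 4.26, SE 0.31, adjusted p = 2.22e-05). Of the 21 tested genes of the clock list it was 1 of 2 that rose, with Cry2 (0.60, SE 0.11), and Clock fell (-0.58, SE 0.16). The list's median was 0.07. Clock did not pass without replicate 1 or 2 nor without the pairing or in the values as deposited, and Cry2 did not in the values as deposited.

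Many matrix transcripts were higher in the trained muscle. Collagen genes rose in 12 of 18 tested members, none fell and the median log2 change was 0.96; without replicates 1, 2 and 3, 9, 9 and 10 rose. Col3a1 stood at 292, 254 and 290.1 against 77.5, 64.5 and 73.5 (1.94, SE 0.19), and Col1a1 at 143, 176 and 141 against 35.9, 30.2 and 33.7 (2.17, SE 0.35). Both are fibril-forming collagens, and in both the trained muscles held several times the contralateral level with no overlap. Of the 3 tested basement membrane chains of type 4 in the list, Col4a1 rose by 1.77 (SE 0.16) and Col4a2 by 1.52 (SE 0.21) on the log2 scale, and Col4a5, named after its value was seen, did not pass (0.11, SE 0.13).

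Other matrix proteins and enzymes rose in 28 of 54 tested members, with a median of 0.76; 1 fell, and without replicates 1, 2 and 3, 19, 19 and 18 rose. The 1 that fell, P4ha1 (-0.59), a collagen prolyl hydroxylase, was named after its value was seen. Bgn, the proteoglycan biglycan, stood at 28.8, 30.6 and 27.7 against 3.86, 4.86 and 6.01 (2.36, SE 0.21, adjusted p = 5.11e-05). Timp1, an inhibitor of matrix metalloproteinases, rose by 1.72 (SE 0.24). In both genes, each trained muscle lay above each contralateral one. Lox, the enzyme that crosslinks collagen, stood at 3.20, 2.64 and 3.46 against 1.09, 0.853 and 0.744 (1.11, SE 0.27) and did not pass without any 1 animal.

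Macrophage genes rose in 20 of 29 tested members, none fell and the median was 0.97; without replicates 1, 2 and 3, 14, 14 and 15 rose. Gpnmb, a glycoprotein of activated macrophages, stood at 21.996, 22.9 and 18.6 against 1.19, 0.787 and 1.57 (3.36, SE 0.23, adjusted p = 2.22e-05). Lgals3, galectin-3, rose by 1.83 (SE 0.18), Ccl2, a chemokine that draws monocytes, by 2.33 (SE 0.31) and C1qa, a complement chain made by resident macrophages, by 1.38 (SE 0.22). The steepest of these had its 3 trained values close together and all contralateral values under 2. Antigen presentation followed in 8 of 23 tested genes, with none that fell and a median of 0.43; without replicates 1, 2 and 3, 4, 7 and 7 rose, with 4 without the pairing and 5 in the values as deposited. Cd74, the chaperone of class 2 molecules, stood at 48.5, 46.1 and 58.0 against 18.8, 24.2 and 26.6 (1.11, SE 0.17).

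Markers of cell types other than the fibre were summed per library. Of 12 macrophage markers 11 were tested and 9 rose, and their summed level was 84.4, 87.3 and 96.3 in the trained muscles against 33.3, 36.2 and 31.5, with Lyz2 the most abundant. For neutrophils 3 of 6 markers were in the table and none could be tested, with sums of 0.126, 1.43 and 0.535 against 0, 0.997 and 0.361. Of 6 tested fibroblast markers 4 rose, with sums of 221, 186 and 249 against 115, 119 and 102.7 and Dcn the most abundant. The trained muscles held more macrophage and fibroblast marker RNA in each pair, and close to no neutrophil marker RNA on either side. Endothelial markers rose in 2 of 7, with sums of 70.7, 72.4 and 63.8 against 47.6, 47.6 and 49.0 and Cdh5 the most abundant, and adipocyte markers in 2 of 5, with sums of 209.6, 184 and 218 against 128, 118 and 124 and Fabp4 the most abundant. Without a replicate 1 adipocyte marker rose, and 1, 1 and 2 of the endothelial ones. Satellite cell markers passed in 0 of 6 by limma, with 1 at an unadjusted p under 0.05. Their sums, led by Myod1, were 27.6, 33.6 and 25.2 against 39.1, 32.5 and 26.6. For Schwann cells 0 of 6 passed by limma, and 0 at an unadjusted p under 0.05. Their sums, led by Pmp22, were 16.02, 12.3 and 14.4 against 13.02, 9.75 and 14.7. Neither of these types was clearly separate between the sides.

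Of 4 erythroid markers 0 passed by limma, with 1 at an unadjusted p under 0.05, and their sums, led by Hba-a1, were 669.9, 665 and 438 against 547, 482 and 374. Of 6 smooth muscle and pericyte markers 0 passed by limma, with 2 at an unadjusted p under 0.05, and the sums, led by Rgs5, were 88.2, 93.0 and 89.0 against 81.1, 84.4 and 81.5. Both sums were higher on the trained side in each pair. Rgs5 itself went the other way, at 34.0, 38.1 and 39.9 in the trained muscles against 44.6, 44.4 and 42.6, and did not pass. Of 7 T and B cell markers Cd4 was the 1 that could be tested; it rose, though not without replicate 3, and the sums it led were 3.34, 4.63 and 4.59 against 1.70, 1.99 and 1.62. At the neuromuscular junction 1 of 5 tested markers rose and 1 fell, with 0, 0 and 1 that rose and 0, 1 and 0 that fell without replicates 1, 2 and 3. The junction sums, led by Chrnb1, were 38.6, 44.1 and 36.7 against 35.7, 39.97 and 42.0 and overlapped. No marker in the table was at 0 in all 6 libraries. Their part in the results was not tested. The muscle label itself held: Acta1, the skeletal actin, was the most abundant of the 5 fibre markers in all 6 libraries. Of the 5, Mb rose. Their sums were 63998, 66174 and 39453 in the trained muscles against 50906, 48460 and 44065. Replicate 3 was thus lower on the trained side, with Acta1 at 19587 against 22156, while replicates 1 and 2 were higher.

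Genes of vessels and their growth rose in 13 of 26 tested members, with none that fell and a median of 0.54. Without replicates 1, 2 and 3, 7, 4 and 11 of them rose, while over all transcripts the 924 rises became 458, 478 and 622. In the values as deposited 8 of the vessel genes rose. Vegfa, the main endothelial growth factor, stood at 107, 152 and 174 against 58.7, 83.6 and 71.9 (0.99, SE 0.17), and Thbs1, the matrix protein thrombospondin-1, at 3.83, 4.40 and 4.72 against 1.10, 1.09 and 0.677 (1.45, SE 0.14). Both were higher in each trained muscle, with no overlap.

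Growth signalling moved in both directions. Of 42 tested genes of atrophy and growth control 10 rose and 6 fell, with a median of -0.10; without replicates 1, 2 and 3, 4, 4 and 7 rose and 2, 1 and 3 fell, and in the values as deposited 6 rose. Irs2, an adaptor of the insulin receptor, stood at 36.0, 51.1 and 29.4 against 5.63, 4.38 and 3.32 (2.86, SE 0.25, adjusted p = 4.64e-05). Of 5 binding proteins of insulin-like growth factors in the list, 3 rose, 1 fell and 1 did not pass, with Igfbp6 at 1.65 (SE 0.24) and Igfbp7 at 1.03 (SE 0.17). Irs2 was many times higher in each trained muscle than in any contralateral one.

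Myc, the growth factor-induced transcription factor, stood at 8.33, 7.96 and 5.45 against 2.10, 0.775 and 0.851 (log2 change 1.91, SE 0.18, adjusted p = 6.26e-05). Its network as a list had 4 genes that rose and 1 that fell among 24, with a median of -0.07, and without any 1 animal 2 rose and none fell. Sat1, the enzyme that breaks down polyamines, rose by 1.43 (SE 0.22). Max, the partner that Myc needs to bind DNA, stood at 8.93, 10.5 and 9.86 against 12.1, 9.86 and 10.8 and did not pass (adjusted p = 0.553), and Amd1, of polyamine synthesis, stood at 18.5, 14.6 and 15.7 against 19.9, 20.1 and 26.4 (adjusted p = 0.115). The trained muscle held more Myc, and its partner gene overlapped between the sides. Of 42 tested ribosome biogenesis genes 1 fell, Mybbp1a (-0.72, SE 0.13), and of 69 ribosomal protein genes 0 passed by limma, with 6 at an unadjusted p under 0.05. Of 37 proteasome genes 0 passed by limma, with 1 at an unadjusted p under 0.05, and their median of 0.04 turned to -0.04 in the values as deposited.

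Satellite cell and myogenic genes rose in 6 of 27 tested members, with none that fell and a median of 0.35. Among those that rose, Hes1, a Notch target, stood at 11.2, 12.02 and 12.3 against 3.72, 4.79 and 3.71 (1.34, SE 0.17), Ccnd1, cyclin D1, at 5.39, 5.73 and 5.52 against 1.56, 1.60 and 2.62 (1.18, SE 0.14), and Cdk1, a kinase of mitosis, at 1.63, 1.71 and 1.97 against 0.266, 0.0877 and 0.386 (1.16, SE 0.18). These were low but separate between the sides. The myogenic factors of the list, named after their values were seen, did not pass. Myod1 (-0.31, SE 0.29) and Myog (-0.38, SE 0.46) had negative changes, and Myf5 (0.35, SE 0.15) and Myf6 (0.31, SE 0.15) positive ones. Outside that list, Tpx2, a spindle protein, fell, with Tpx2-202 at 0.263, 2.28 and 1.90 against 13.1, 11.3 and 13.4 (-2.57, SE 0.28). It lies before Mylk2 on the same strand, with a gap between them. Whether reads of one gene were counted for the other was not tested.

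Membrane repair and the dystrophin complex gave 11 genes that rose and 2 that fell of 32, with a median of 0.10, and without replicates 1, 2 and 3, 4, 5 and 6 rose and 0, 0 and 1 fell, and in the values as deposited 7 rose and none fell. S100a10, which pairs with annexin A2 under the membrane, stood at 69.6, 47.8 and 64.0 against 15.8, 16.03 and 20.7 (1.73, SE 0.21), and Anxa5 rose by 1.17 (SE 0.17). The list of smooth muscle genes and actin isoforms gave 6 that rose and 1 that fell of 20, with a median of 0.35. Without replicates 1, 2 and 3, 4, 3 and 6 rose. Its tested actins are named after their values were seen. Actb rose (0.77, SE 0.15), while Acta1, Actc1 and the smooth muscle actins Acta2 (0.57, SE 0.20) and Actg2 (0.61, SE 0.22) did not pass. Tagln2, transgelin-2, stood at 51.4, 51.6 and 46.7 against 21.7, 23.2 and 24.1 (1.09, SE 0.13). The 1 that fell is Lmod1. Of 36 autophagy and lysosome genes 7 rose and 2 fell, with a median of 0.10; without replicates 1, 2 and 3, 3, 2 and 5 rose and 1 fell each time. The lysosomal proteases Ctsb (0.81, SE 0.13) and Ctsk (1.15, SE 0.17) rose. At the synapse 2 of 15 genes rose and 2 fell, with a median of 0.06 that was -0.01 in the values as deposited, and without replicates 1, 2 and 3, 0, 0 and 1 rose and 1, 2 and 1 fell. Scn4a, the sodium channel of muscle, stood at 24.3, 27.7 and 26.04 against 55.2, 50.6 and 43.9 (-0.91, SE 0.14).

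In energy metabolism the fall was clearest in branched-chain amino acid breakdown. Of 25 tested genes 7 fell and none rose, with a median of -0.29; without replicates 1, 2 and 3, 5, 4 and 6 fell. Bcat2, which takes the amino group off leucine, isoleucine and valine, stood at 16.04, 19.7 and 16.4 against 41.4, 45.1 and 42.3 (-1.26, SE 0.22). Acadsb, a dehydrogenase of the isoleucine branch, stood at 5.63, 5.74 and 8.03 against 19.3, 19.3 and 18.997 (-1.45, SE 0.19). In both, each contralateral muscle held over double the trained value. Aldh6a1, at the end of the valine branch, fell by 0.92 (SE 0.12) and Dbt, of the complex that commits the carbon chains to breakdown, by 0.76 (SE 0.13).

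Glycogen and glycolysis genes went both ways, with 5 that rose and 6 that fell of 39 and a median of 0.10; without replicates 1, 2 and 3, 4 rose each time and 5, 3 and 4 fell. Hk2, the hexokinase that traps glucose and is known to rise after exercise, stood at 92.0, 103 and 84.4 against 29.3, 25.6 and 24.8 (1.77, SE 0.16, adjusted p = 5.10e-05). Among those that fell were Phkb (-1.10, SE 0.20) and Phkg1 (-0.87, SE 0.16), subunits of phosphorylase kinase. Pygm, glycogen phosphorylase itself, stood at 2866, 2864 and 1992 against 3874, 3904 and 3510.2 (-0.57, SE 0.13) and did not pass without replicate 2 or 3. Fatty acid genes gave 4 that rose and 2 that fell of 39, with a median of 0.08 that was -0.01 in the values as deposited; without replicates 1, 2 and 3, 2, 2 and 3 rose and none fell. Fabp5, a fatty acid carrier, stood at 14.1, 13.6 and 12.2 against 3.48, 6.27 and 4.65 (1.33, SE 0.18). The hexokinase and the carrier did not overlap between the sides.

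Few mitochondrial genes passed. Of the 13 mRNAs of mitochondrial DNA, 0 passed by limma, and 0 at an unadjusted p under 0.05, and their median was 0.16. Mt-co1, a cytochrome oxidase subunit and the most abundant, stood at 44868, 36513 and 40179 against 31601, 31399.6 and 38164, with the groups overlapping (0.27, SE 0.23, adjusted p = 0.500). Of 35 nuclear genes of complex I, 34 had a positive change and the median was 0.34, yet 0 passed by limma, with 15 at an unadjusted p under 0.05; 2 passed in the values as deposited and 3 without the pairing. Ndufb9, an accessory subunit, came closest of those named, at 736, 598 and 587 against 391, 384 and 438 (0.66, SE 0.20, adjusted p = 0.0518), and it did pass in the values as deposited and without the pairing. Complexes 2 to 5 had 3 genes that rose of 42 and a median of 0.35, with 20 at an unadjusted p under 0.05. Cox6a1 stood at 49.1, 53.0 and 45.1 against 26.2, 31.0 and 23.4 (0.85, SE 0.14), and Cox7a1 at 5.19, 5.77 and 5.63 against 1.30, 1.44 and 1.20 (1.50, SE 0.17). Both are subunits of cytochrome oxidase, and in both the trained muscles lay above the contralateral ones. Of 24 citrate cycle genes 1 rose, Mpc2 of pyruvate entry (0.67, SE 0.16), and it did not pass without any 1 animal. Of 26 regulators of mitochondrial biogenesis 3 rose and 2 fell, with a median of -0.09; without replicates 1, 2 and 3, 2 rose each time and 0, 2 and 0 fell.

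Iron, haem and antioxidant genes rose in 8 of 22 tested members, with none that fell, a median of 0.20, and 7 without any 1 animal. Hmox1, the enzyme that opens haem, stood at 22.3, 17.01 and 14.7 against 1.24, 1.81 and 2.55 (2.74, SE 0.22, adjusted p = 3.93e-05). Ftl1, the ferritin light chain, stood at 183, 207 and 149 against 59.2, 55.5 and 46.0 (1.72, SE 0.14), and Gpx1, glutathione peroxidase, rose by 1.31 (SE 0.18). Ferritin has near copies in the genome, so the share of reads that belongs to this gene is uncertain. All 3 were separate between the sides.

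**Figure D4:**
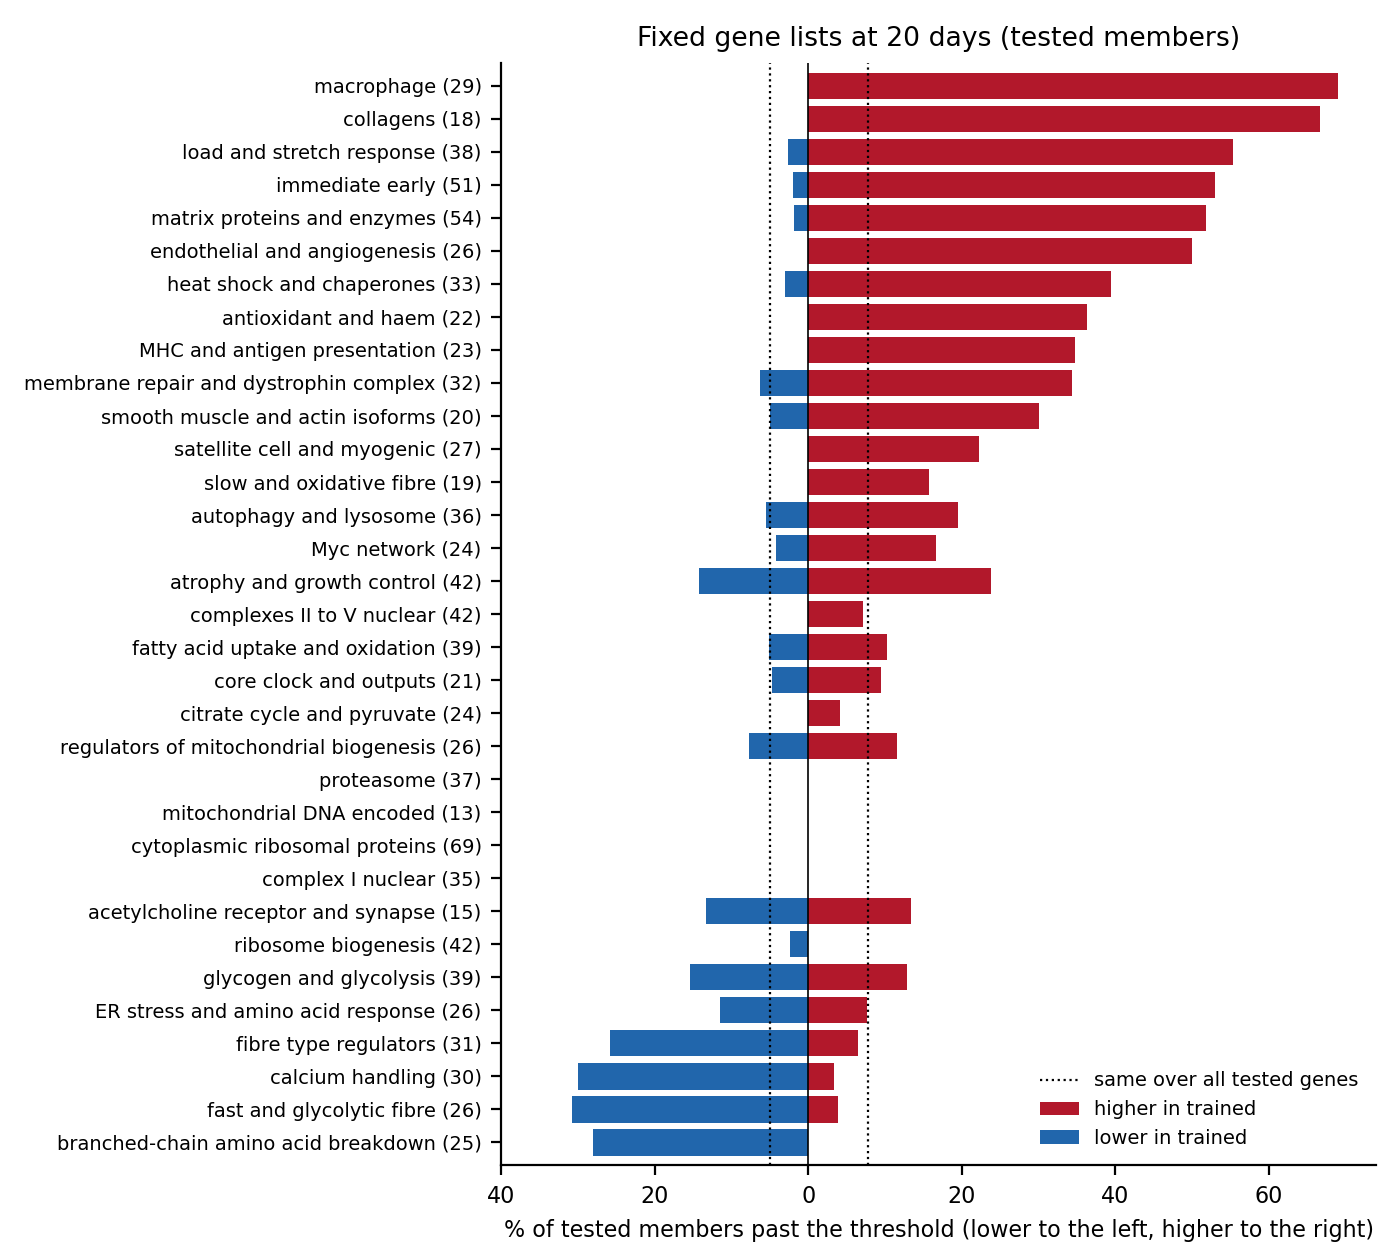
Share of the tested members of each of the 33 lists that rose (red, to the right) or fell (blue, to the left), in percent, with the number tested in brackets; dotted lines mark 7.76% and 5.04% of all 11100 genes. Macrophage and collagen genes reach furthest right, with 20 of 29 and 12 of 18, and fast fibre genes furthest left, with 8 of 26.

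A few symbols held transcripts that rose and transcripts that fell. They were 4 of 1855 with 2 or more tested transcripts: Myh4, whose transcripts lie in separate stretches as given above, Rtn4, Tsc22d1 and Clip4, of which the last 3 were named after their values were seen. Rtn4-201, a form of the reticulon that shapes tubules of the endoplasmic reticulum, stood at 29.9, 26.6 and 31.1 against 7.36, 4.43 and 7.12 (2.07, SE 0.32), while Rtn4-204 stood at 243, 205 and 257 against 326, 349 and 330.1 (-0.51, SE 0.12). Tsc22d1-201, a leucine zipper form, rose by 0.83 (SE 0.18) while Tsc22d1-202 fell by 0.64 (SE 0.18) on the log2 scale.

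Set against the other durations by a test of the difference between training effects, 20 days gave few calls. Between 20 and 10 days 0 of 13452 transcripts passed by limma, with 1086 at an unadjusted p under 0.05, and between 20 and 30 days 0 passed, with 630. From 2 days 64 (0.476%) passed, 27 with a more positive effect at 20 days and 37 with a more negative one, with 2052 at an unadjusted p under 0.05; 43 of the 64 also passed at 20 days itself. In the values as deposited, where the median difference was -0.19 in place of -0.02, 45 passed, 6 positive and 39 negative. The count leans on single animals: without replicates 1, 2 and 3 of 20 days 10, 6 and 0 passed, and without replicates 1, 2 and 3 of 2 days 233, 0 and 2.

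Ankrd1 had the most negative difference of the load genes, -5.04 (SE 0.58, adjusted p = 0.00800). Its mean was 1564 in trained and 6.45 in contralateral muscle at 2 days, and 45.9 and 8.06 at 20 days. Myh4-203 stood at 4341 and 6891 at 2 days and at 98.8 and 7161 at 20 days, a difference of -5.56 (SE 0.74, adjusted p = 0.0151). The load gene was thus far higher in trained muscle at 2 than at 20 days, and the myosin transcript far lower at 20 than at 2. Tubb6, a tubulin made by regenerating fibres, differed by -2.97 (SE 0.41), Prkag3 by -1.71 (SE 0.19) and Psmd11, a proteasome lid subunit, by -1.90 (SE 0.27). The other way went Ciart (2.71, SE 0.44), with means of 14.97 in trained and 4.07 in contralateral muscle at 2 days and 22.03 and 0.200 at 20 days, so that by ratio its contralateral level differed more than its trained one. Also more positive at 20 days were Cox7a1 (2.20, SE 0.25), Tfrc, the transferrin receptor (1.85, SE 0.34), and Mb (1.42, SE 0.22). Mb averaged 4251 in trained against 7002 in contralateral muscle at 2 days, and 11079 against 6674 at 20 days, so its sides changed places. None of these differences passed without replicate 3 of 20 days or without replicate 2 of 2 days, and Cox7a1 alone of them passed without replicate 3 of 2 days. A clock gene that went the other way from Ciart was Arntl (-1.41, SE 0.25, adjusted p = 0.0387 by limma). Its means were 6.19 in trained and 3.09 in contralateral muscle at 2 days, and 6.11 and 9.36 at 20 days. The difference for Arntl thus lay in the contralateral level, while the trained level was close to the same. Arntl did not pass without replicate 3 of 20 days or replicate 2 of 2 days either.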

How the data were processed

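The TPM values (transcript table) were made by the authors, as deposited: by their description reads were trimmed, aligned with STAR to the rn6 build in Partek and scaled with DESeq2. However, every sample has the same total, and median-of-ratios factors from 0.778 to 1.14 remained between libraries. The values are therefore not as a DESeq2 scaling would leave them, and the last step of their making is not known. The signal values of the deposited gene-level table were scaled by the authors by sample in a way that is not stated, and were used as an alternative only. The authors' own comparison results were not used here. Each library was scaled by its median-of-ratios factor, and log2 was taken after adding 1. Transcripts with at least 1 in at least 3 samples were tested with limma 3.58.1 in R 4.3.3, in 1 fit of all 24 libraries with animal as block and a trained-minus-contralateral effect per time point. Differences between time points are contrasts of these effects. P-values were adjusted by Benjamini-Hochberg over all tested transcripts, with a threshold of 0.05. Genes were named by rule: the 12 largest changes each way at a mean of at least 10, up to 5 members per list that passed (3 where none did), genes that the study itself discusses, and the 5 largest differences each way from other durations. Members and lists were chosen with earlier results of these data known. Alternatives tried were the values as deposited, a pseudocount of 0.1, no filter, a mean of at least 10, no animal block, values summed per gene, an intensity trend, an unadjusted p under 0.01, each animal left out, the 6 libraries alone, all contralateral muscles as 1 group and the gene-level table. The planned count test was not run, because whole reads cannot be recovered from the values. Pairs were checked by the r of each muscle's deviations from its group mean. The median was 0.133 (0.0174 to 0.270) within an animal and -0.0701 between opposite sides of different animals of a time point. Deviations cancel out within a group, which ties the second value to the first, so it is no separate check of the pairs.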

Additional observations from a re-analysis of the deposited data

Results flagged for a closer look

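The training effect at 20 days differed from that at 2 days, by the contrast of the effects, for these named transcripts, given as the log2 difference. More negative at 20 days were Myh4-203 (-5.56), Myh4-204 (-5.38), Ankrd1 (-5.04), Tubb6 (-2.97), Tpx2 (-2.49), Psmd11 (-1.90), Prkag3 (-1.71), Arntl (-1.41) and Mylk2 (-1.11). More positive were Ciart (2.71), Cox7a1 (2.20), Tfrc (1.85) and Mb (1.42). For Arntl and, by ratio, for Ciart the contralateral level differed more between the time points than the trained level.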

How the results depend on the processing

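The count of 1559 was 891 with a mean of at least 10 and 974 in the gene-level table, which hold fewer features. Leaving out 1 animal of the comparison or replicate 1 of 30 days gave 678 to 1540; fewer samples entered each fit. For the difference from 10 days, 0 became 1 with a mean of at least 10, 1 with values summed per gene and 232 at an unadjusted p under 0.01, and from 30 days 0 became 135 at that p. For the difference from 2 days, 64 became 20 with a pseudocount of 0.1, 296 with a mean of at least 10, 97 without the animal block, 204 with values summed per gene, 129 with an intensity trend and 802 at that p, and 0 to 233 with 1 animal left out. The cause of these moves was not tested. The limits are 3 animals a group, a depth that the table does not show, values that split reads among like transcripts, and tissue taken 1 h after a session, so that lasting and acute changes cannot be told apart.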

Other observations

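Mylk2 and Tpx2 fell together and are neighbours. On the rn6 build Tpx2 (chr3:148327987-148369971) ends shortly before Mylk2 (chr3:148386189-148399502) begins, on the same strand.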
